A study of Saccharomyces cerevisiae with 16 samples.

Results

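The RNA-seq libraries made 1 h after eIF4E depletion measured which yeast mRNAs were higher or lower after IAA was added to degrade this cap-binding protein; the protein itself was not measured here. They are 4 of the 16 libraries of the series: 2 from cultures given 500 µM IAA (indole-3-acetic acid, an auxin) and 2 from cultures given the solvent DMSO, each for 1 h. All came from a strain of Saccharomyces cerevisiae BY4742, a haploid of the alpha mating type, in which the genomic CDC33 gene of eIF4E carried a mini auxin-inducible degron with a 3xFLAG tag (eIF4E-AID), so the DMSO controls carried the tagged allele too. Cells grew in the rich medium YPD at 30 °C, and RNA was selected with oligo(dT) beads, which capture poly(A) tails. The remaining libraries were RNA at 8 h, which was depleted of rRNA rather than selected for poly(A), and ribosome footprints at both times. The labels give biological replicates 1 and 2 in each group without saying how the cultures were separated, and the p-values therefore reflect only how far these libraries differed from each other, in part perhaps for technical reasons. IAA is itself a substance that DMSO cultures did not receive, and 1 h libraries without the degron were not analysed here, so effects of IAA and of eIF4E loss cannot be told apart.

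eIF4E binds the methylated guanosine cap at the 5′ end of mRNAs and, with the scaffold eIF4G and the helicase eIF4A, recruits the small ribosomal subunit. The same cap is the substrate of the decapping enzyme that starts decay of the message body, so initiation and mRNA turnover meet at this structure. In the degron system, auxin joins the tagged protein to the plant receptor of an SCF ubiquitin ligase, and the proteasome degrades it. An mRNA level is the balance of synthesis and decay, and RNA-seq at a single time does not separate them.

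The 2 IAA libraries held 37670606 and 50294053 counts over genes and the 2 DMSO libraries 32096327 and 43744949. Levels are given in CPM, a gene's count over the library size after TMM scaling, for each library, and log2 fold changes are IAA over DMSO with their standard error (n = 2 libraries per group) and a p adjusted over all features tested (edgeR's quasi-likelihood test, Benjamini-Hochberg). CDC33 itself (YOL139C, chromosome XV, 60383 to 61024 of build R64) had 584 and 496 CPM with IAA, against 744 and 670.1 with DMSO, without overlap (-0.39 ± 0.11, adjusted p = 0.0299); since the degron acts on protein, this mRNA is no check of the treatment, and the call was lost with total-count scaling (-0.17), without IAA replicate 2 (-0.28) and without DMSO replicate 1 (-0.32). No library held more than 3 counts of any of the markers deleted in BY4742 (HIS3, LEU2, LYS2, URA3). Of the alpha-cell markers MF(ALPHA)1, MF(ALPHA)2, STE3 and SAG1, none was at 0 and their summed level was 4155 and 3744 CPM with IAA, against 3633 and 3389 CPM with DMSO. The 6 a-cell markers summed to 39.4 and 47.0 CPM with IAA, against 21.8 and 23.8 CPM with DMSO, and the 6 meiotic markers to 53.1 and 55.3 CPM, against 32.9 and 33.3 CPM. Of these, 3 a-cell and 2 meiotic markers were called higher and none lower. IME2 alone held 26.6 and 28.1 CPM of the meiotic sum with IAA, against 9.10 and 8.03 with DMSO.

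Of 6247 features tested, 593 (9.49%) were higher and 418 (6.69%) lower with IAA at an adjusted p under 0.05 together with a change of 0.58 or more on the log2 scale, about 1.49-fold. With the adjusted p alone, which is the rule used for single genes and gene lists below, 1391 (22.3%) were higher and 1335 (21.4%) lower, so a list with such a share of its members called in a direction matches the background. The IAA and DMSO libraries did not overlap for 4694 features (75.1%). RNA came from whole cultures, so fewer cells of a kind and less RNA per cell cannot be told apart. Fold changes are relative to the bulk of the genes in a library. Scaling by total counts, in place of TMM, shifted the median of all features by 0.22 towards IAA, and the calls with the minimum fold were then 1150 higher and 181 lower (86.4% higher, against 58.7% with TMM). A call is named steady below where it kept its direction and an adjusted p under 0.05 under every alternative tried, total-count scaling, DESeq2 and the removal of each library included, had no overlap of the groups and averaged 50 counts or more; 1251 features (20%) were steady. In every gene named below with an adjusted p under 0.05, both IAA libraries lay on the same side of both DMSO libraries. Beside a list's count, a bracket gives the count under any alternative that moved it by over 1.5 times and by 2 members or more, the fit with the replicate number as a term apart.

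The change went with the level of the mRNA. Ranked by counts per kilobase of coding sequence over the 4 libraries, the lowest quintile of 5708 nuclear protein-coding genes had a median log2 fold change of 0.13, the next quintiles 0.08, 0.08 and -0.03, and the most abundant quintile -0.26, and the share called lower was 9.63%, 14.99%, 17.7%, 26.8% and 45.8% in that order. With total-count scaling the medians were 0.35, 0.30, 0.29, 0.18 and -0.04. The gene lists below were set against all features and not against genes of like level. Coding length moved the median less: it was -0.18 for the shortest quintile of coding sequences (78 to 627 bases), -0.04 for the next, and 0.03, 0.06 and 0.03 for the longer quintiles. Within the most abundant quintile, the 400 shortest coding sequences had a median of -0.30 and the 66 longest -0.11, and within the lowest quintile the 252 shortest had 0.41 and the 293 longest 0.00 (-0.00442). Among the 257 nuclear protein-coding genes with an intron, 72 (29 with total-count scaling) were lower and 12 (29 with total-count scaling) higher, 27 and 6 of them steady, with a median of -0.22 that was 0 (1.37e-05) with total-count scaling. Of these, the most abundant quintile without ribosomal protein genes (50 genes) had 36 lower calls and a median of -0.41, against 472 of 956 and -0.28 for genes of that quintile without an intron. With the replicate number as a term, 155 of the 257 genes with an intron were lower and 23 higher. Over all 6247 features, that fit gave 2032 lower and 2034 higher.

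**Figure D1:**
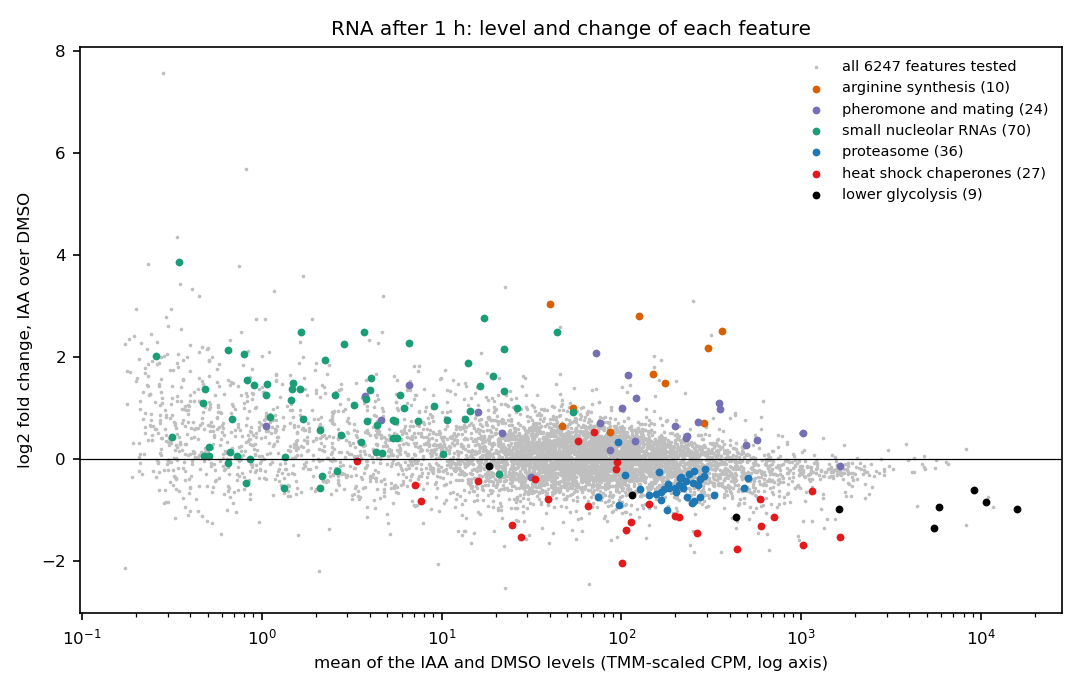
Log2 fold change (IAA over DMSO, vertical axis) against the mean level of the 2 groups (TMM-scaled CPM, log axis) for the 6247 features tested, in grey, with the members of 6 lists in colour. Arginine synthesis genes and small nucleolar RNAs lie mostly above 0, while proteasome, chaperone and lower glycolysis genes lie mostly below it, and the 4 most abundant features, TDH3, PDC1, FBA1 and ENO2, are all below 0.

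Chaperones, the proteins that fold or refold others, had the lowest list median after lower glycolysis. Of 27 heat shock chaperone genes tested, 20 (12 without IAA replicate 2) were lower and 2 higher, 10 and 1 of them steady, with a median log2 fold change of -0.92 (-0.71 with total-count scaling), against 0.01 for all features. SSA2, a cytosolic Hsp70 (YLL024C, chromosome XII, 95566 to 97485), had 485 and 486 CPM with IAA, against 1399 and 1739.8 with DMSO (-1.69 ± 0.13, adjusted p = 0.000338). Its close copy SSA1 had 156 and 244 CPM with IAA, against 524 and 838 with DMSO (-1.76 ± 0.37, adjusted p = 0.0328). Of the Hsp90 genes, HSC82 (YMR186W, chromosome XIII, 632355 to 634472) had 879.9 and 829 CPM with IAA, against 2273 and 2632 with DMSO (-1.52 ± 0.12, adjusted p = 0.000402). Reads shared between such close copies could be split by counting settings that are not known, and SSA1 was called without being steady, as was the other Hsp90 gene. That gene, HSP82, had 32.03 and 46.8 CPM with IAA, against 116 and 209 with DMSO (-2.04 ± 0.42, adjusted p = 0.036). Their partners fell as well. The Hsp40 SIS1 had 60.3 and 55.9 CPM with IAA, against 142 and 165 with DMSO (-1.40 ± 0.09, adjusted p = 0.000319), and STI1, the adaptor between Hsp70 and Hsp90, 137 and 145 CPM with IAA, against 332 and 442 with DMSO (-1.46 ± 0.14, adjusted p = 0.00113). The cyclophilin CPR6, which works with Hsp90, had 137 and 126 CPM with IAA, against 274 and 305 with DMSO (-1.14 ± 0.09). SSE1, an exchange factor of Hsp70, had 939 and 860.1 CPM with IAA, against 1384 and 1417 with DMSO (-0.64 ± 0.10). Chaperones of the mitochondrial matrix were among the members: SSC1, the Hsp70 there, had 415 and 462 CPM with IAA, against 882 and 1046 with DMSO (-1.14 ± 0.12), the disaggregase HSP78 -1.30 ± 0.19, and the chaperonin HSP60 -1.31 ± 0.24, called but not steady. The stress-inducible Hsp70 genes went the other way, SSA3 with 84.5 and 81.4 CPM with IAA, against 57.1 and 58.8 with DMSO (0.52 ± 0.07), and SSA4 with 0.35 ± 0.08, which was not steady. The gene of the heat shock factor, HSF1, had 87.98 and 97.7 CPM with IAA, against 91.6 and 103 with DMSO (-0.07 ± 0.09), which did not pass the test.

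The heat shock factor binds inverted GAA units, and 3 alternating units (GAA or TTC, each 2 bases from the next) were searched on both strands in the 300 bases from 400 to 101 before each start codon, with sequence from RefSeq's R64 genome; overlap with other motifs was allowed. Such a run lay in 1.10% of 5987 promoters and in 13 of the 27 chaperone genes, whose median was -1.24, against -0.79 for the 14 without it. Outside the list, 51 tested genes held it, with a median of -0.08 and 13 lower and 6 higher calls. The stretches of the 4 steady chaperone genes with the smallest adjusted p that hold the run are given to show where it lies; each is written 5′ to 3′ on the strand of its gene, in capitals where the run nearest the start codon lies, with 20 bases on either side.
SIS1 (chrXIV:619867-619919, - strand): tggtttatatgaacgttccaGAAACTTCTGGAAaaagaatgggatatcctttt
SSA2 (chrXII:97686-97738, - strand): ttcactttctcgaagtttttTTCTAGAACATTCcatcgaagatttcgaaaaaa
STI1 (chrXV:380817-380869, + strand): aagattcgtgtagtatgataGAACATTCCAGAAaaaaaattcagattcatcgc
SSE1 (chrXVI:352429-352481, - strand): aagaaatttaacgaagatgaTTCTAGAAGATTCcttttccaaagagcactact
In SIS1 the run ended 322 bases before the start codon, and in SSA2, STI1 and SSE1 221, 204 and 174 bases before it. A match describes the letters of the window and is not a measured binding site.

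Folding factors elsewhere in the cell changed less. In the endoplasmic reticulum, 10 (3 with total-count scaling) of 16 genes of folding and the unfolded protein response were lower and none (2 with total-count scaling) higher, with a median of -0.28 (-0.07 with total-count scaling) and 3 steady calls. KAR2, the Hsp70 of this compartment, had 254 and 234 CPM with IAA, against 597 and 649.9 with DMSO (-1.35 ± 0.09, adjusted p = 0.000319). PDI1, the disulfide isomerase, had 586 and 558 CPM with IAA, against 1012 and 1070.1 with DMSO (-0.86 ± 0.10, adjusted p = 0.000862). HAC1 and IRE1, the transcription factor and the sensor of the unfolded protein response, had -0.22 ± 0.12 (not called) and -0.37 ± 0.07 (adjusted p = 0.00626, not steady). Among chaperones bound to the ribosome, 4 of 7 (2 without DMSO replicate 1) were lower, with the Hsp40 ZUO1 (-0.56 ± 0.11) and the nascent chain factor EGD2 (-0.53 ± 0.11) steady. For the chaperonin CCT and its partner prefoldin, 8 of 15 (0 with total-count scaling, 5 in the fit of 8 RNA libraries, 3 without IAA replicate 2, 4 without DMSO replicate 1) were lower and no call was steady.

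Genes of the proteasome fell almost as a block. Of the 36 genes tested, 34 were lower and none higher, against 21.4% of all features, 24 of them steady, and the median was -0.57 (-0.35 with total-count scaling). Both parts of the particle fell. In the core, which cuts proteins, PRE7 had 123 and 115 CPM with IAA, against 235 and 240.4 with DMSO (-0.999 ± 0.07, adjusted p = 0.000338). PRE1, another core subunit, had 123 and 118 CPM with IAA, against 214 and 209 with DMSO (-0.81 ± 0.07, adjusted p = 0.00046). In the regulatory particle, which unfolds substrates, the ATPase RPT2 had 192 and 173 CPM with IAA, against 337 and 308 with DMSO (-0.82 ± 0.09, adjusted p = 0.000794). The deubiquitinase RPN11 (YFR004W, chromosome VI, 153393 to 154313) had 112 and 104 CPM with IAA, against 180.0 and 174 with DMSO (-0.71 ± 0.07, adjusted p = 0.000734). The assembly chaperone UMP1 had 56.1 and 54.5 CPM with IAA, against 93.3 and 90.98 with DMSO (-0.74 ± 0.07). The other steady members lay between -0.90 (SEM1) and -0.48 (RPN6) on the log2 scale. RPN4, which encodes the transcription factor of the proteasome genes and a very short-lived protein, was the exception in sign, with 105 and 108 CPM with IAA, against 95.3 and 75.1 with DMSO (0.32 ± 0.12, adjusted p = 0.0626), and did not pass the test, nor did the regulatory subunit RPN5 (-0.20 ± 0.08).

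Rpn4 binds the proteasome-associated control element (PACE, GGTGGCAAA). In the same window and on both strands, PACE lay in 1.15% of 5987 promoters and in 21 of the 36 proteasome genes. Members with it had a median of -0.58 and 20 lower calls, and the 15 without it -0.51 and 14. Outside the list, 48 tested genes held it, of which 19 were lower and 5 higher (median -0.27). The 4 steady members with PACE and the smallest adjusted p are shown, with PACE in capitals; the stretches of PRE3 and RPN11 end where the window does.
PRE1 (chrV:177673-177721, + strand): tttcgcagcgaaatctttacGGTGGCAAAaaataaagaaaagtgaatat
PRE3 (chrX:435025-435062, + strand): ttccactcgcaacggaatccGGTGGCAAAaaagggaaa
PRE2 (chrXVI:732174-732222, + strand): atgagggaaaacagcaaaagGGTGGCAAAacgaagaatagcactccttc
RPN11 (chrVI:153249-153292, + strand): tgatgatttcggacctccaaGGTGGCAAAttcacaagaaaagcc
The element ended 134, 110, 147 and 116 bases before the start codon in PRE1, PRE3, PRE2 and RPN11, whose log2 fold changes were -0.81 ± 0.07, -0.68 ± 0.07, -0.74 ± 0.08 and -0.71 ± 0.07.

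Upstream of the proteasome, 11 (7 with total-count scaling) of 23 ubiquitin genes were lower and none (3 with total-count scaling) higher, 7 of them steady. The shuttle factor DSK2, which carries ubiquitinated proteins to the proteasome, had 165 and 167 CPM with IAA, against 347 and 351 with DMSO (-1.07 ± 0.07, adjusted p = 0.000319). DDI1, another shuttle, had 37.1 and 38.1 CPM with IAA, against 63.6 and 60.9 with DMSO (-0.73 ± 0.07, adjusted p = 0.000661). The unfolding ATPase CDC48 had 594 and 591 CPM with IAA, against 913 and 919 with DMSO (-0.63 ± 0.09), and its cofactors SHP1 (-0.55 ± 0.09) and UFD1 (-0.49 ± 0.09) fell too, whereas NPL4 (0.16 ± 0.07) was not called. Of the SCF ligase that the degron uses, SKP1 had 135 and 117 CPM with IAA, against 183 and 165 with DMSO (-0.46 ± 0.10, adjusted p = 0.0085, not steady), and the cullin CDC53 (0.19 ± 0.07), the ring subunit HRT1 (-0.02 ± 0.08) and the conjugating enzyme CDC34 (-0.09 ± 0.07) did not pass the test. The polyubiquitin gene UBI4 had 142 and 173 CPM with IAA, against 102 and 137 with DMSO (0.40 ± 0.18, not called).

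**Figure D2:**
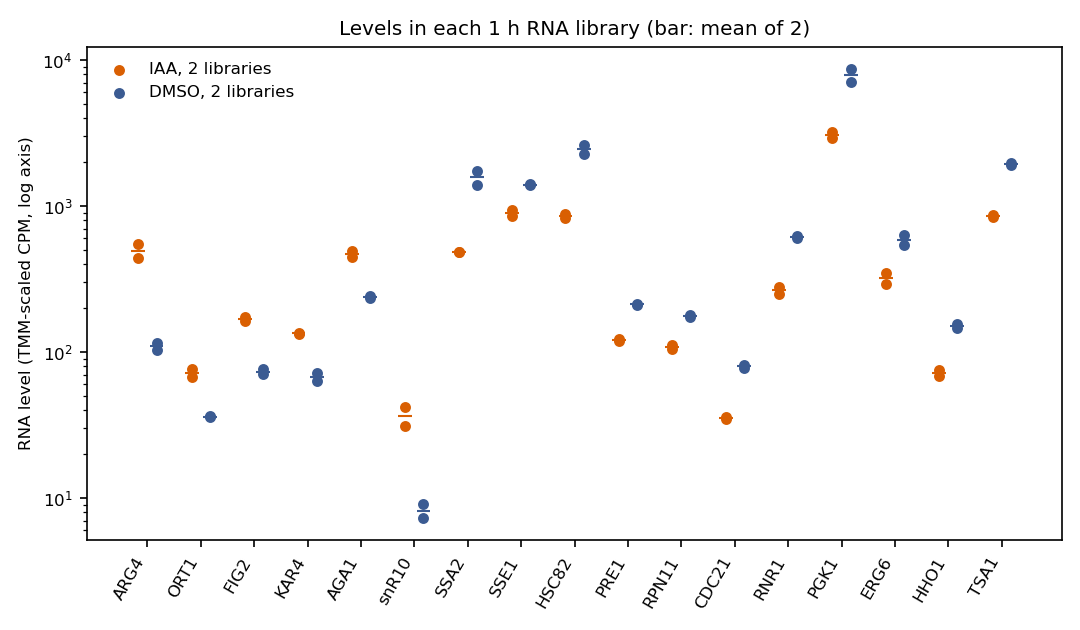
Level of 17 genes in each 1 h RNA library (TMM-scaled CPM, log axis), with the 2 IAA libraries left of the 2 DMSO libraries for each gene and a short bar at the mean of 2. From ARG4 to snR10 IAA lies above DMSO, and from SSA2 to TSA1 below it. All 17 genes were steady calls, which required that the groups not overlap, and 75.1% of all features did not overlap.

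Among biosynthetic pathways, arginine synthesis rose most. All 10 genes tested were higher (10 of 10, against 22.3% of all features), 8 of them steady, with a median of 1.57 (1.79 with total-count scaling). The pathway joins ornithine, made in mitochondria, with carbamoyl phosphate. CPA1, which takes part in making carbamoyl phosphate, had 307 and 407 CPM with IAA, against 197 and 242 with DMSO (0.70 ± 0.17, adjusted p = 0.0292). Ornithine synthesis in mitochondria followed, with ARG7, the ornithine acetyltransferase, at 254 and 260.3 CPM with IAA, against 94.7 and 89.4 with DMSO (1.48 ± 0.07, adjusted p = 0.000158). ARG5,6, which encodes a kinase and a reductase of this route, rose as well (1.66 ± 0.16). ORT1, the carrier that exports ornithine, had 67.1 and 76.8 CPM with IAA, against 36.2 and 35.7 with DMSO (1.003 ± 0.09, adjusted p = 0.00046). The last steps, from ornithine to arginine, rose further than these. ARG3, the ornithine carbamoyltransferase, had 46.996 and 95.4 CPM with IAA, against 6.31 and 10.8 with DMSO (3.04 ± 0.54, adjusted p = 0.0267). ARG1, the argininosuccinate synthase, had 152 and 285 CPM with IAA, against 23.4 and 39.2 with DMSO (2.80 ± 0.49, adjusted p = 0.026). ARG4, the lyase (YHR018C, chromosome VIII, 140011 to 141402), had 438 and 549 CPM with IAA, against 115 and 104 with DMSO (2.17 ± 0.13, adjusted p = 0.000319). In ARG1 and ARG3 the 2 IAA libraries lay far apart, and both were called without being steady. The smallest rises were those of ARG8 (0.53 ± 0.07) and ARG2 (0.65 ± 0.11), both steady.

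Gcn4, the activator of amino acid synthesis genes, binds TGACTCA (the general control response element, GCRE). It lay in 2.89% of 5987 promoter windows and in 8 of the 10 arginine genes, whose median was 1.92, against 0.68 for the 2 without it. Over all 169 tested genes with the element, arginine genes included, 64 were higher (37.9%) and 32 lower (18.9%). Outside the list, 161 tested genes held it, with a median of 0.10 and 56 higher and 32 lower calls. Of the steady arginine genes with the element, 3 with small adjusted p are shown, with the element in capitals.
ARG7 (chrXIII:396505-396551, - strand): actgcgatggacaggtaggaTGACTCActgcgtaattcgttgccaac
ARG4 (chrVIII:141555-141601, - strand): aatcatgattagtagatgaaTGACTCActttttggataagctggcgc
ORT1 (chrXV:571012-571058, - strand): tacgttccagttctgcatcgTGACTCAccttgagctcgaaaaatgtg
The element ended 146 bases before the start codon of ARG7, 173 before that of ARG4 and 225 before that of ORT1. GCN4 mRNA had 1627 and 1397 CPM with IAA, against 1427 and 1455 with DMSO (0.07 ± 0.12, adjusted p = 0.659) and was not called.

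The other amino acid pathways moved in parts. In aromatic synthesis, 7 (4 without DMSO replicate 2) of 12 genes were higher and none lower, with a median of 0.31 (0.53 with total-count scaling), among them ARO3, a first-step synthase, with 418 and 401 CPM with IAA, against 246 and 223 with DMSO (0.81 ± 0.09, adjusted p = 0.00075). TYR1, the prephenate dehydrogenase of tyrosine synthesis, had 125 and 128 CPM with IAA, against 89.8 and 85.2 with DMSO (0.53 ± 0.07, adjusted p = 0.00142). For lysine, 3 of 9 (7 with total-count scaling) were higher: the activator LYS14 (0.93 ± 0.08), the transferase LYS5 that charges the reductase Lys2 (1.02 ± 0.10), and the last enzyme, LYS1 (0.67 ± 0.09), while the 6 others lay between -0.13 and 0.20. For histidine, 2 of 6 (4 with total-count scaling) were higher, with HIS5 steady (0.50 ± 0.09). Serine and threonine genes split, with 2 higher and 7 of 12 (2 with total-count scaling, 3 in the fit of 8 RNA libraries, 3 without IAA replicate 2, 2 without DMSO replicate 1, 3 without DMSO replicate 2) lower. SER3, the entry to serine synthesis, had 169 and 155 CPM with IAA, against 62.04 and 57.4 with DMSO (1.44 ± 0.08, adjusted p = 0.000203). SER2, the last step of the same route, had 94.7 and 88.2 CPM with IAA, against 178 and 163 with DMSO (-0.90 ± 0.08, adjusted p = 0.0005), and SHM2, the cytosolic serine hydroxymethyltransferase, fell as well (-1.21 ± 0.11). Of the regulators and branch enzymes of leucine, the activator LEU3 had 139 and 139 CPM with IAA, against 79.9 and 78.5 with DMSO (0.81 ± 0.07). The synthase LEU4 was higher (0.83 ± 0.19) and the transaminase BAT1 lower (-0.65 ± 0.09). Around glutamate, GDH2, which releases ammonia from it, had 176 and 186 CPM with IAA, against 84.2 and 101 with DMSO (0.97 ± 0.10, adjusted p = 0.000706). GLN1, the glutamine synthetase, had 354 and 402 CPM with IAA, against 706 and 770.5 with DMSO (-0.97 ± 0.10, adjusted p = 0.000794), a change of like size in the other direction.

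Sulfur genes moved in both directions, with most falls in the methionine cycle. Of 24 genes of the methionine and S-adenosylmethionine cycle, 15 were lower and 2 (4 with total-count scaling) higher, 12 and 1 of them steady, with a median of -0.46 (-0.25 with total-count scaling). The S-adenosylmethionine synthetase SAM2 had 74.6 and 64.96 CPM with IAA, against 202 and 207 with DMSO (-1.55 ± 0.09, adjusted p = 0.000203), and its close copy SAM1 -1.44 ± 0.12. MUP1, the high-affinity methionine permease, had 129.9 and 122 CPM with IAA, against 265 and 258 with DMSO (-1.06 ± 0.07, adjusted p = 0.000319), and MMP1, which takes up S-methylmethionine, -1.35 ± 0.13. Transsulfuration fell in the direction of cysteine, with CYS3 at -1.05 ± 0.11 and CYS4 at -0.84 ± 0.10, and STR3, the lyase of the reverse direction, at -1.26 ± 0.21. STR2, the synthase before STR3, was the exception, with 90.7 and 96.3 CPM with IAA, against 44.3 and 44.3 with DMSO (1.08 ± 0.07, adjusted p = 0.000319). In sulfate assimilation 6 were higher and 5 lower of 18, 4 and 3 of them steady. MET17, which joins sulfide to homoserine, had 111 and 119 CPM with IAA, against 352 and 385 with DMSO (-1.68 ± 0.08, adjusted p = 0.000158), and MET14, the APS kinase, -0.90 ± 0.08. MET10, a subunit of sulfite reductase, had 129.5 and 145 CPM with IAA, against 84.8 and 90.8 with DMSO (0.65 ± 0.08, adjusted p = 0.0014). MET30, the F-box protein that restrains the activator Met4, had 133 and 137 CPM with IAA, against 91.4 and 87.7 with DMSO (0.60 ± 0.07, adjusted p = 0.000974), so members of the same route moved to both sides.

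Nitrogen genes were also divided. Among 28 genes for the use of poor nitrogen sources, 10 were higher and 5 (3 with total-count scaling, 3 in the fit of 8 RNA libraries, 3 without IAA replicate 1, 3 without DMSO replicate 2) lower (8 and 2 steady). The urea transporter DUR3 had 39.7 and 47.2 CPM with IAA, against 13.7 and 15.3 with DMSO (1.58 ± 0.12, adjusted p = 0.000338). UGA3, the activator of the GABA genes, had 90.1 and 107 CPM with IAA, against 38.4 and 39.3 with DMSO (1.34 ± 0.10, adjusted p = 0.000319). The allantoin pathway genes DAL2, DAL3 and DAL7 rose too (0.92 ± 0.11, 0.94 ± 0.17 and 0.87 ± 0.08). Arginine breakdown went the opposite way to its synthesis: the arginase CAR1 had 53.2 and 45.9 CPM with IAA, against 122 and 110.2 with DMSO (-1.23 ± 0.10, adjusted p = 0.000341), and the ornithine transaminase CAR2 -1.56 ± 0.24, which was not steady. Of 30 amino acid permease and sensor genes, 5 (13 with total-count scaling) were higher and 5 lower, shares under the 22.3% and 21.4% of all features. ALP1, a permease of basic amino acids, had 10.04 and 13.3 CPM with IAA, against 3.33 and 3.27 with DMSO (1.82 ± 0.20, adjusted p = 0.000842), and AGP3 1.27 ± 0.14, while the tyrosine and tryptophan permease TAT1 fell (-0.51 ± 0.09). In the Ehrlich pathway, which turns amino acids into fusel alcohols and acids, 7 of 20 were higher and 6 lower. Beside ARO9 (2.44 ± 0.08) and ARO10 (3.08 ± 0.09), the steady rises held THI3 (0.59 ± 0.07) and ESBP6, with 108 and 99.04 CPM with IAA, against 47.003 and 47.9 with DMSO (1.12 ± 0.07, adjusted p = 0.000319).

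Central carbon metabolism held the most abundant mRNAs that fell. In upper glycolysis 7 of 8 (4 without DMSO replicate 2) genes were lower and in lower glycolysis 7 of 9 (4 without DMSO replicate 2), none was higher in either, and their medians were -0.83 (-0.61 with total-count scaling) and -0.94 (-0.72 with total-count scaling). HXK2, the hexokinase of glucose growth (YGL253W, chromosome VII, 23935 to 25395), had 535 and 470.2 CPM with IAA, against 1312 and 1533 with DMSO (-1.50 ± 0.12, adjusted p = 0.000417). Its paralog HXK1 had 14.2 and 26.5 CPM with IAA, against 78.7 and 144 with DMSO (-2.44 ± 0.51, not steady). PGK1, the phosphoglycerate kinase (YCR012W, chromosome III, 137746 to 138996), had 3186 and 2929 CPM with IAA, against 7094 and 8610.0 with DMSO (-1.36 ± 0.16, adjusted p = 0.000965), and the mutase GPM1 -0.94 ± 0.14. ADH1, the main fermentative alcohol dehydrogenase, had 5179 and 4341 CPM with IAA, against 10806 and 12467 with DMSO (-1.29 ± 0.17, adjusted p = 0.00143). Glycolytic mRNAs are among the most abundant in yeast, and the 10 most abundant genes held 8.28 and 7.61% of counts with IAA, against 10.4 and 11.2% with DMSO. Glucose transport showed the same sign, with 8 of 21 transporter and sensing genes lower, all 8 steady, and none (3 with total-count scaling) higher. HXT3, a low-affinity transporter, had 511 and 465 CPM with IAA, against 1560.4 and 1365 with DMSO (-1.58 ± 0.12, adjusted p = 0.000338), and HXT1 -1.16 ± 0.09. HXT2, of higher affinity, had 159 and 154 CPM with IAA, against 489.6 and 625 with DMSO (-1.83 ± 0.13, adjusted p = 0.000338); HXT genes share sequence. The repressor MIG2 had 29.5 and 29.2 CPM with IAA, against 71.7 and 82.02 with DMSO (-1.39 ± 0.09, adjusted p = 0.000319). MTH1, a corepressor of HXT genes, had 6.85 and 7.41 CPM with IAA, against 20.4 and 24.04 with DMSO (-1.64 ± 0.14), while the sensor RGT2 (0.22 ± 0.10) and MIG1 (-0.22 ± 0.14) were not called.

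Beyond pyruvate, 10 of 19 genes were lower and 2 higher (7 and 2 steady). The acetaldehyde dehydrogenase ALD6 had 293 and 301 CPM with IAA, against 900.0 and 1156 with DMSO (-1.79 ± 0.13, adjusted p = 0.000346), and the acetyl-CoA synthetase ACS2 -0.62 ± 0.08. ALD3, a stress-inducible aldehyde dehydrogenase, went the other way, with 20.1 and 20.4 CPM with IAA, against 7.64 and 10.03 with DMSO (1.19 ± 0.16, adjusted p = 0.00153). GPD1, the glycerol-3-phosphate dehydrogenase of osmotic stress, had 41.4 and 31.97 CPM with IAA, against 77.1 and 87.001 with DMSO (-1.17 ± 0.14). In the pentose phosphate pathway 6 of 11 (3 with total-count scaling) were lower and 1 (3 with total-count scaling) higher. GND1, the phosphogluconate dehydrogenase, had 439 and 384 CPM with IAA, against 887 and 825 with DMSO (-1.06 ± 0.11, adjusted p = 0.000634), and the transaldolase TAL1 -0.83 ± 0.09. In the TCA cycle and its retrograde control 13 of 28 (8 with total-count scaling) were lower and 3 (7 with total-count scaling, 5 without DMSO replicate 1) higher, 8 and 1 steady, with a median of -0.19 that turned to 0.03 with total-count scaling. The mitochondrial malate dehydrogenase MDH1 had 85.98 and 70.8 CPM with IAA, against 170.3 and 172 with DMSO (-1.13 ± 0.10, adjusted p = 0.000527), and the succinyl-CoA ligase subunit LSC2 -0.99 ± 0.07. CIT2, the peroxisomal citrate synthase and a marker of the retrograde response, had 195 and 292 CPM with IAA, against 42.6 and 77.4 with DMSO (2.02 ± 0.42, adjusted p = 0.0378), a rise that was not steady, whereas ACO1 (0.37 ± 0.21) and CIT1 (0.02 ± 0.16) were not called.

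**Figure D3:**
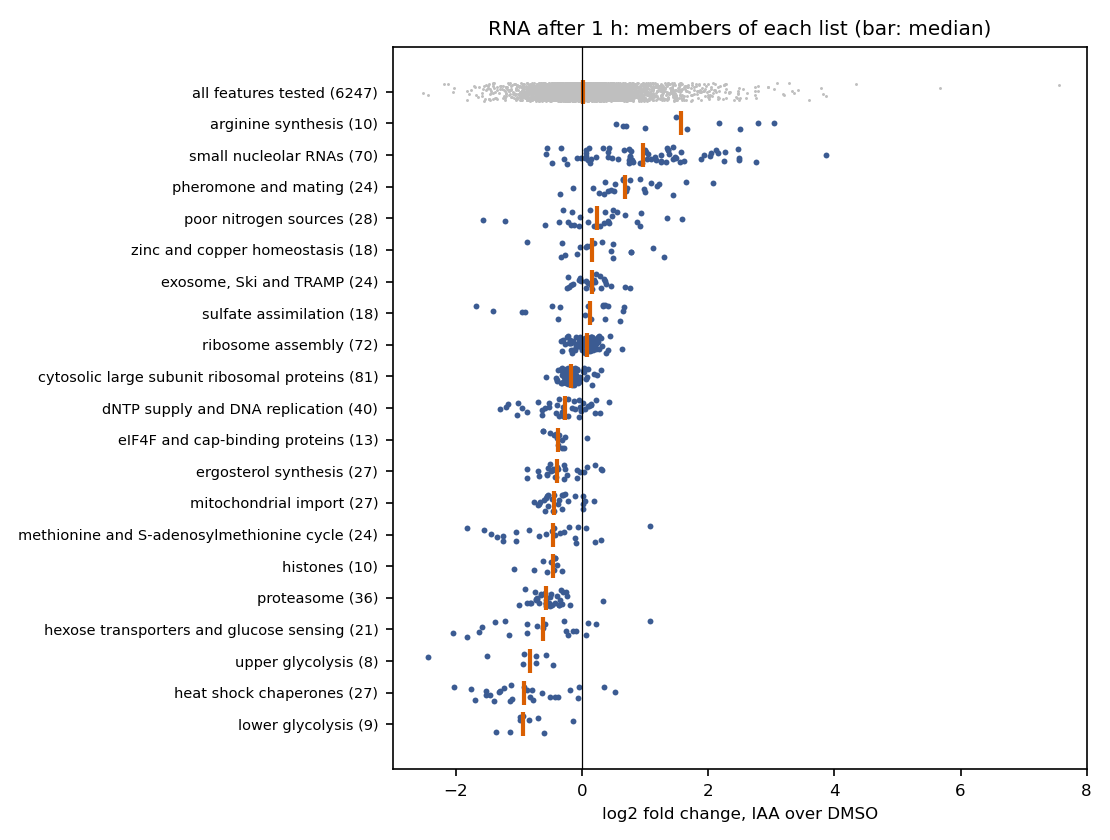
Log2 fold change (IAA over DMSO, horizontal axis) of every tested member of 20 gene lists (points, number of members in brackets) with the list median (bar), and all 6247 features at the top. Medians run from 1.57 for arginine synthesis to -0.94 for lower glycolysis, and lists such as sulfate assimilation hold members well to both sides of 0.

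Of nuclear genes for mitochondria, many were called lower with TMM scaling and fewer with total-count scaling. Of 27 import genes, 20 (10 with total-count scaling) were lower and none (2 with total-count scaling) higher, 10 steady, with a median of -0.44 (-0.22 with total-count scaling). TOM70, a receptor of the outer membrane, had 212 and 212 CPM with IAA, against 320.0 and 319.6 with DMSO (-0.59 ± 0.07, adjusted p = 0.00117). TOM22, the central receptor, had 125 and 124 CPM with IAA, against 197 and 199 with DMSO (-0.67 ± 0.07, adjusted p = 0.000703), and TIM10, a small chaperone of the intermembrane space, -0.69 ± 0.09. Of 72 mitochondrial ribosomal protein genes, 47 (8 with total-count scaling) were lower and 4 (0 without IAA replicate 2, 2 without DMSO replicate 1) higher, 8 and 0 steady, with a median of -0.36 (-0.14 with total-count scaling). MRPS16, of the small subunit, had 35.3 and 36.7 CPM with IAA, against 55.3 and 61.03 with DMSO (-0.69 ± 0.08, adjusted p = 0.00108). For the nuclear genes of the respiratory chain 8 of 37 (13 with DESeq2, 3 with total-count scaling, 22 without IAA replicate 1, 23 without DMSO replicate 2) were lower and 1 higher, the first a share near the 21.4% of all features. With the replicate number as a term, 31 of the 37 were lower, against 2032 of 6247 features. The steady members were CYC1, cytochrome c (YJR048W, chromosome X, 526335 to 526664), with 18.2 and 11.9 CPM with IAA, against 50.3 and 38.3 with DMSO (-1.56 ± 0.26, adjusted p = 0.0101), and the oxidase subunit COX7 (-0.77 ± 0.13). HAP4, the regulatory subunit of their activator, had 19.6 and 13.7 CPM with IAA, against 30.7 and 33.5 with DMSO (-0.95 ± 0.18, adjusted p = 0.00781). Of the 12 reading frames of the mitochondrial genome that could be tested, at a median level of about 3 CPM in both groups, none was called. Its rRNAs, counted apart, were not called either. The 21S rRNA had 63.2 and 73.5 CPM with IAA, against 57.0 and 61.8 with DMSO (0.20 ± 0.09), and the 15S rRNA -0.91 ± 0.45.

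Defence against oxidants fell with the chaperones. Of 31 genes, 18 were lower and 1 higher, 13 and 1 steady, with a median of -0.51 (-0.30 with total-count scaling). TSA1, the main cytosolic peroxiredoxin, had 838 and 867 CPM with IAA, against 1980.3 and 1903 with DMSO (-1.19 ± 0.11, adjusted p = 0.000487). AHP1, another peroxiredoxin, had 590.0 and 907 CPM with IAA, against 1687 and 2148 with DMSO (-1.36 ± 0.25). Superoxide dismutases were lower in both compartments, SOD1 of the cytosol with 503 and 500.0 CPM with IAA, against 985 and 954 with DMSO (-0.95 ± 0.09, adjusted p = 0.000562), and SOD2 of the matrix with -0.71 ± 0.07. Thioredoxin and glutaredoxin genes were among the rest, with TRX2 at -0.77 ± 0.09 and GRX1 at -0.89 ± 0.09. CTT1, the cytosolic catalase, was the exception, with 25.4 and 26.9 CPM with IAA, against 12.2 and 14.8 with DMSO (0.95 ± 0.13), and the regulators YAP1 (-0.19 ± 0.07) and SKN7 (0.05 ± 0.08) were not called.

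Genes of the mating response rose. Of 24 tested, 17 were higher and 1 lower, 14 and 0 of them steady, with a median of 0.68 (0.89 with total-count scaling). In haploid cells a pheromone receptor signals through a G protein and a MAP kinase cascade to the factor Ste12, which turns on genes for arrest, adhesion and fusion. The cascade itself rose in part: the G protein alpha subunit GPA1 had 345 and 317 CPM with IAA, against 212 and 192 with DMSO (0.71 ± 0.09). The beta subunit STE4 (0.45 ± 0.09), the MAP kinase FUS3 (0.34 ± 0.07) and STE12 itself (0.65 ± 0.07) were higher and steady, while the gamma subunit STE18 was lower (-0.36 ± 0.10, adjusted p = 0.0214, not steady) and the scaffold STE5 (0.17 ± 0.08) was not called. Of Ste12 targets, PRM1, a membrane protein of cell fusion (YNL279W, chromosome XIV, 110917 to 112902), had 129.8 and 104 CPM with IAA, against 31.1 and 24.4 with DMSO (2.08 ± 0.17, adjusted p = 0.00127). FIG2, an adhesin of mating cells (YCR089W, chromosome III, 267434 to 272263), had 162 and 174 CPM with IAA, against 70.9 and 75.97 with DMSO (1.19 ± 0.08, adjusted p = 0.000319). AGA1, which anchors the agglutinin of a cells, had 449 and 493 CPM with IAA, against 243 and 236 with DMSO (0.98 ± 0.09, adjusted p = 0.00047). These are proteins of the cell surface. Of regulators, KAR4, which acts with Ste12 on karyogamy genes, had 134 and 134 CPM with IAA, against 71.5 and 63.2 with DMSO (0.99 ± 0.08, adjusted p = 0.000405). SST2, which turns the G protein off, had 487 and 463 CPM with IAA, against 226 and 220.3 with DMSO (1.09 ± 0.08, adjusted p = 0.000338). FUS1 had 99.5 and 89.6 CPM with IAA, against 57.4 and 59.01 with DMSO (0.70 ± 0.08, adjusted p = 0.000867) and was called without being steady. Of a-cell genes, which belong to the other mating type, 4 of 7 (2 with DESeq2, 2 among genes that averaged 100 counts or more, 2 without IAA replicate 2) were higher, with STE2, the alpha-factor receptor, at 13.7 and 15.6 CPM with IAA, against 4.99 and 4.95 with DMSO (1.56 ± 0.16). The a-cell genes BAR1 (-0.06 ± 0.23), MFA1 (1.14 ± 0.40) and MFA2 (-0.07 ± 0.66) were not called. Of alpha-cell genes, those of the strain's own type, 2 of 4 were higher, and of meiotic genes 4 of 13. IME2, a kinase of meiosis, rose most of the meiotic genes, with 26.6 and 28.1 CPM with IAA, against 9.10 and 8.03 with DMSO (1.68 ± 0.12). IME1 (-0.12 ± 0.15), NDT80 (0.47 ± 0.22), HOP1 (0.06 ± 0.24) and SPO13 (0.28 ± 0.37) were not called. The part of a-cell, alpha-cell and meiotic genes in the mating result was not tested.

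Ste12 binds TGAAACA (the pheromone response element, PRE). The element lay in 7.65% of 5987 windows and in 16 of the 24 mating genes, with a median of 0.95, against 0.46 for the 8 without it. Outside the list, 409 genes held it and their median was -0.04, with 86 higher and 89 lower, near the background in both directions. The 4 steady mating genes with the element and the smallest adjusted p are shown, with it in capitals; in KAR4 it lies on the opposite strand and reads TGTTTCA.
FIG2 (chrIII:267060-267106, + strand): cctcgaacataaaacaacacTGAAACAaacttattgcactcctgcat
SST2 (chrXII:1041585-1041631, - strand): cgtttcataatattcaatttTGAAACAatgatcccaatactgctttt
KAR4 (chrIII:27764-27810, + strand): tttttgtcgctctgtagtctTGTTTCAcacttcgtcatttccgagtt
AGA1 (chrXIV:703477-703523, + strand): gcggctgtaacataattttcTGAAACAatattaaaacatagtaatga
It ended 348, 239, 139 and 196 bases before the start codons of FIG2, SST2, KAR4 and AGA1.

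The supply of nucleotides and the replication machinery fell in part. Of 40 genes, 20 (12 with total-count scaling) were lower and 2 (8 with total-count scaling) higher, 12 and 1 steady, with a median of -0.27 (-0.05 with total-count scaling). RNR1, the large subunit of ribonucleotide reductase (YER070W, chromosome V, 298950 to 301616), had 278 and 250.2 CPM with IAA, against 621 and 601 with DMSO (-1.21 ± 0.09, adjusted p = 0.000338). CDC21, the thymidylate synthase, had 34.9 and 35.8 CPM with IAA, against 82.1 and 77.4 with DMSO (-1.17 ± 0.07, adjusted p = 0.000301). POL30, the sliding clamp of the polymerases, had 89.3 and 74.7 CPM with IAA, against 214 and 190.1 with DMSO (-1.30 ± 0.11). The single-strand binding complex fell in all its subunits, RFA1 with 59.96 and 56.9 CPM with IAA, against 123 and 117 with DMSO (-1.04 ± 0.07, adjusted p = 0.000319), RFA2 with -1.01 ± 0.09 and RFA3 with -0.95 ± 0.08. The origin recognition and MCM genes were mixed, with MCM2 at -0.32 ± 0.09 (called, not steady), MCM4 at 0.29 ± 0.07 (higher, not steady) and ORC5 at 0.43 ± 0.07 (higher, steady). Histone genes followed the same sign: 9 of 10 were lower and none higher, 4 steady. The linker histone HHO1 had 74.8 and 68.1 CPM with IAA, against 156 and 145 with DMSO (-1.08 ± 0.08, adjusted p = 0.000338), and HHF2, a histone H4 gene, -0.77 ± 0.10; the paired copies of core histone genes share sequence. Of the G1 cyclins, CLN3 had 47.6 and 46.3 CPM with IAA, against 73.4 and 73.1 with DMSO (-0.64 ± 0.07), and CLN2 -0.58 ± 0.08. The S-phase cyclin CLB6 was lower (-1.10 ± 0.17), while SIC1, the inhibitor of its kinase, had 105 and 123 CPM with IAA, against 82.3 and 75.9 with DMSO (0.53 ± 0.09). Of genes of daughter cells and cell separation, 7 of 13 (4 without IAA replicate 2) were higher and 1 lower, with DSE1 at 851 and 823 CPM with IAA, against 378 and 389 with DMSO (1.12 ± 0.09, adjusted p = 0.000352) and AMN1, an antagonist of mitotic exit, at 0.47 ± 0.09.

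The MBF factor of the start of the cell cycle binds ACGCGT (the MluI cell cycle box, MCB). It lay in 3.96% of 5987 windows and in 20 of the 40 genes, whose median was -0.46 with 14 lower and 0 higher calls, against -0.02, 6 and 2 for the 20 without it. Of 214 tested genes outside the list with the box, 86 were lower and 19 higher (median -0.17). The 4 steady members with it and the smallest adjusted p each held 2 copies, and the copy nearest the start codon is in capitals; the stretches of CDC21 and RFA2 end where the window does.
CDC21 (chrXV:467690-467730, - strand): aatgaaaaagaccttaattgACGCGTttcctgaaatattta
RFA1 (chrI:158729-158774, - strand): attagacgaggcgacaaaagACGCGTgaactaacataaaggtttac
RNR1 (chrV:298624-298669, + strand): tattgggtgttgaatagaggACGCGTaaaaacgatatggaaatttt
RFA2 (chrXIV:48159-48186, + strand): tatacgaaacgcgttaggaaACGCGTtc
The copy shown ended 116, 130, 301 and 103 bases before the start codons of CDC21, RFA1, RNR1 and RFA2.

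Purine and pyrimidine synthesis fell in part. Of 20 purine genes 12 (5 with total-count scaling) were lower and none higher, 5 steady. ADE17, of the last steps to inosine monophosphate, had 379.6 and 299 CPM with IAA, against 1084 and 806 with DMSO (-1.48 ± 0.19, adjusted p = 0.00304), and the salvage enzyme HPT1 -0.87 ± 0.12. For pyrimidines 6 were lower and 1 higher of 13, with a median of -0.18 that turned to 0.04 with total-count scaling. URA1, the dihydroorotate dehydrogenase, had 469.7 and 388 CPM with IAA, against 790.3 and 804 with DMSO (-0.90 ± 0.11, adjusted p = 0.00134). The uracil permease FUR4 was lower (-0.79 ± 0.08), and URA10, a minor orotate phosphoribosyltransferase, higher (0.67 ± 0.13). The actin and tubulin cytoskeleton had 15 of 27 genes lower and none higher, 10 steady, with the tropomyosin TPM1 at 365 and 348 CPM with IAA, against 622 and 599 with DMSO (-0.78 ± 0.09, adjusted p = 0.000835) and the beta-tubulin TUB2 at -0.59 ± 0.08.

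Genes of sterol and fatty acid synthesis were called lower more often than higher, while phospholipid and sphingolipid genes depended on the scaling. In ergosterol synthesis 18 of 27 (11 with total-count scaling) were lower and 2 (4 with total-count scaling, 0 without IAA replicate 1, 0 without DMSO replicate 2) higher, 11 and 0 steady, with a median of -0.40 (-0.19 with total-count scaling). ERG6, the sterol methyltransferase, had 346 and 294 CPM with IAA, against 633 and 541 with DMSO (-0.87 ± 0.12, adjusted p = 0.00182), and ERG25, the methyl oxidase, -0.57 ± 0.08. ERG7, the cyclase, was higher without being steady (0.31 ± 0.08), and the regulators ECM22 (0.03 ± 0.08) and UPC2 (0.21 ± 0.07) were not called. In fatty acid synthesis 8 of 18 (3 with total-count scaling) were lower and none higher, with the elongase ELO2 at 183 and 169 CPM with IAA, against 286 and 260.3 with DMSO (-0.64 ± 0.08, adjusted p = 0.00156). The fatty acid synthase genes FAS1 (-0.55 ± 0.23) and FAS2 (-0.34 ± 0.21) and the desaturase OLE1 (-0.64 ± 0.42) did not pass the test. In phospholipid synthesis 11 of 23 (4 with total-count scaling) were lower and 2 (5 with total-count scaling, 4 among genes that averaged 100 counts or more) higher, with a median of -0.21 that was 0 (0.00490) with total-count scaling. CHO2, the phosphatidylethanolamine methyltransferase that uses S-adenosylmethionine, had 147 and 127 CPM with IAA, against 335 and 396 with DMSO (-1.42 ± 0.11, adjusted p = 0.00046), and the phosphatidylserine synthase CHO1 -0.66 ± 0.07. In sphingolipid synthesis 6 of 21 (2 with total-count scaling) were lower and 5 higher, with a median of -0.14 that turned to 0.08 with total-count scaling. SUR1, of mannosylation, had 23.3 and 26.2 CPM with IAA, against 47.6 and 55.98 with DMSO (-1.07 ± 0.11), and the hydroxylase SUR2 -0.72 ± 0.08. The ceramide synthase LAC1 (0.53 ± 0.08) and the phospholipase ISC1 (0.55 ± 0.07) were higher and steady.

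Lists of the translation apparatus had medians below 0 or, in ribosome assembly, above it, and their calls depended on settings. Of 13 genes of eIF4F and other cap-binding proteins, 10 (3 with total-count scaling, 5 without DMSO replicate 1) were lower and none higher, with 2 steady. These were TIF4632, the minor eIF4G gene, with 86.6 and 86.3 CPM with IAA, against 129 and 138 with DMSO (-0.63 ± 0.07, adjusted p = 0.000897), and CAF20, a repressor that binds eIF4E, with 203 and 176 CPM with IAA, against 293 and 292 with DMSO (-0.63 ± 0.09). The major eIF4G gene TIF4631 had 573 and 555 CPM with IAA, against 767 and 743 with DMSO (-0.42 ± 0.09), the eIF4A genes TIF1 and TIF2 -0.32 ± 0.10 and -0.29 ± 0.09, and PAB1, the poly(A)-binding protein, -0.28 ± 0.10, which was not called. In eIF3, eIF1, eIF1A and eIF5, 6 of 9 (3 with total-count scaling, 3 without DMSO replicate 1) were lower and 1 higher. SUI1, which encodes eIF1, had 285 and 251 CPM with IAA, against 411 and 369 with DMSO (-0.54 ± 0.10, adjusted p = 0.00519), and PRT1, an eIF3 subunit, was the higher call (0.33 ± 0.11, not steady). In eIF2, eIF2B and eIF5B, 1 of 9 (3 with DESeq2, 3 without IAA replicate 1) was lower and none (3 with total-count scaling) higher, with a median of -0.06 that turned to 0.15 with total-count scaling. Among elongation and termination factors 7 of 16 (4 with total-count scaling) were lower and 2 higher. HYP2, which encodes eIF5A, had 1006 and 737 CPM with IAA, against 1846 and 1592 with DMSO (-0.98 ± 0.17, adjusted p = 0.00563), and EFB1, the exchange factor of eEF1A, -0.77 ± 0.13. DOM34, a ribosome rescue factor, was higher, with 133 and 124 CPM with IAA, against 95.5 and 97.6 with DMSO (0.42 ± 0.07, adjusted p = 0.00409). Aminoacyl-tRNA synthetase genes had 7 of 19 (11 with DESeq2, 2 with total-count scaling, 2 in the fit of 8 RNA libraries, 3 without IAA replicate 2, 1 without DMSO replicate 1, 2 without DMSO replicate 2) lower and none (2 with total-count scaling) higher calls, with WRS1 (-0.43 ± 0.09) as the steady member. Cytosolic ribosomal protein genes were mostly not called in the main fit, with shares of lower calls that were under the 21.4% of all features there: 9 of 81 (28 with DESeq2, 2 with total-count scaling, 3 in the fit of 8 RNA libraries, 30 without IAA replicate 1, 4 without IAA replicate 2, 1 without DMSO replicate 1) were lower in the large subunit and 6 of 56 (21 with DESeq2, 2 with total-count scaling, 28 without IAA replicate 1, 2 without IAA replicate 2, 2 without DMSO replicate 1, 2 without DMSO replicate 2) in the small, with medians of -0.18 and -0.22 that were 0.03 and 0 (0.000458) with total-count scaling. With the replicate number as a term, however, 49 of the 81 and 39 of the 56 were lower, against 2032 of 6247 features. The steady members were RPL8A (-0.57 ± 0.13), RPS28B (-0.74 ± 0.13) and RPS22B (-0.70 ± 0.14). In ribosome assembly 9 of 72 (44 with total-count scaling, 14 among genes that averaged 100 counts or more, 5 in the fit of 8 RNA libraries, 4 without DMSO replicate 2) were higher and 4 (0 with total-count scaling, 1 without IAA replicate 2, 0 without DMSO replicate 1) lower, 4 and 0 steady. Both shares in the main fit were under the 22.3% and 21.4% of all features. With the replicate number as a term, 29 of the 72 were higher and 14 lower, against 2034 and 2032 of 6247 features. Among the steady members were UTP9, of the small subunit processome, at 363 and 358 CPM with IAA, against 236 and 232 with DMSO (0.63 ± 0.07, adjusted p = 0.00106), and the kinase RIO2 at 0.41 ± 0.07.

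RNA decay genes moved in both directions. Of 24 genes of the exosome and its cofactors, 8 (16 with total-count scaling) were higher and 1 lower, 6 and 0 steady. NRD1, which ends transcription of short non-coding RNAs and recruits the exosome, had 265 and 239 CPM with IAA, against 158 and 140.1 with DMSO (0.75 ± 0.09, adjusted p = 0.00119). The zinc knuckle protein AIR2 of TRAMP (0.68 ± 0.08) and the nuclear exonuclease RRP6 (0.38 ± 0.08) were higher as well. Decapping and 5′ to 3′ decay had 10 of 22 (0 with total-count scaling, 6 in the fit of 8 RNA libraries, 6 without IAA replicate 2, 6 without DMSO replicate 1) lower and 3 (7 with total-count scaling) higher calls, 0 and 3 steady, with a median of -0.18 that was 0.04 with total-count scaling. DCP1, the decapping activator, had -0.40 ± 0.10 and XRN1, the exonuclease, 374 and 368 CPM with IAA, against 473 and 475 with DMSO (-0.35 ± 0.08), neither of them steady, and DCP2, the catalytic subunit, had 0.01 ± 0.07 and was not called. UPF3, of nonsense-mediated decay, had 111 and 111 CPM with IAA, against 71.8 and 74.3 with DMSO (0.60 ± 0.07, adjusted p = 0.000862). Of deadenylase genes, CDC39, the scaffold of Ccr4-Not, had 131 and 140.0 CPM with IAA, against 186 and 213 with DMSO (-0.56 ± 0.09, adjusted p = 0.00312), and PAN2 -0.52 ± 0.07. Splicing factor genes had 9 of 36 (17 with total-count scaling, 5 without IAA replicate 1) higher and 3 (0 with total-count scaling, 1 in the fit of 8 RNA libraries, 1 without IAA replicate 2, 1 without DMSO replicate 1, 1 without DMSO replicate 2) lower calls, 4 and 0 steady, with a median of 0.05 that was 0 (-0.00443) without DMSO replicate 2. The share of higher calls was near the 22.3% of all features. PRP40, of the U1 particle, had 118 and 119.8 CPM with IAA, against 73.8 and 71.9 with DMSO (0.71 ± 0.07, adjusted p = 0.000552).

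Non-coding RNAs of the nucleolus were higher in these poly(A)-selected libraries. Mature small nucleolar RNAs (snoRNAs) guide RNA modification and have no poly(A) tail, so the libraries hold what the oligo(dT) beads kept of them: snoRNAs took 0.0682 and 0.0648% of counts with IAA, against 0.0276 and 0.0242% with DMSO. Of 70 snoRNAs tested, 37 (22 among genes that averaged 100 counts or more) were higher and none lower, 17 steady. In the 8 h RNA, which was depleted of rRNA, 17 of 69 were higher, against 10.7% of all features, and none lower. Their median there was 0.55, against 0.97 at 1 h. The 1 h and 8 h responses differed for 1 of 74 snoRNAs in each direction. The box H/ACA class, which guides pseudouridylation, had 21 higher calls of 29, 14 of them steady, and a median of 1.25, while the box C/D class, which guides methylation, had 16 of 39, 3 of them steady, and a median of 0.74; the difference between the classes was not tested, and their median levels over genes were 8.23 and 1.57 CPM with IAA, against 3.97 and 0.91 CPM with DMSO. snR46 (chromosome VII, 545370 to 545566) had 31.9 and 28.3 CPM with IAA, against 4.79 and 4.15 with DMSO (2.76 ± 0.14, adjusted p = 0.000158). snR10 had 41.9 and 31.1 CPM with IAA, against 9.10 and 7.32 with DMSO (2.16 ± 0.19, adjusted p = 0.000616). snR30, which is needed for cleavage of the rRNA precursor rather than its modification, had 84.2 and 65.2 CPM with IAA, against 15.8 and 11.01 with DMSO (2.49 ± 0.23, adjusted p = 0.00211). In the C/D class, snR4 had 29.4 and 28.9 CPM with IAA, against 10.7 and 8.37 with DMSO (1.62 ± 0.14, adjusted p = 0.00047), and was steady. snR13 had 1.80 and 1.15 CPM with IAA, against 0.848 and 0.415 with DMSO (1.25 ± 0.42, adjusted p = 0.0494), and was not steady. The U3 genes snR17a (0.10 ± 0.31) and snR17b (0.47 ± 0.26) were not called. The sorting used here placed them in neither class, so the class counts leave them out. The RNA subunits of RNase MRP (NME1, 7.63 and 9.27 CPM with IAA, against 3.39 and 2.44 with DMSO, 1.55 ± 0.23) and RNase P (RPR1, 1.26 ± 0.17) were higher and steady, while the telomerase RNA TLC1, at 127 and 111 CPM with IAA, against 123 and 112 with DMSO (0.02 ± 0.09), and the signal recognition particle RNA SCR1 (0.64 ± 0.54) were not called. Of the 6 spliceosomal RNA entries 2 were higher, snR6 (2.55 ± 0.56) and snR14 (2.74 ± 0.61), and none was steady.

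Features with little known function were also measured. Of 393 tested open reading frames without an entry in the reference annotation, 96 were higher, a share near the 22.3% of all features, and 23 lower, with a median of 0.40 at levels of 1.24 CPM with IAA and 0.85 CPM with DMSO in the median; such frames often overlap or lie opposite other genes, and the strand setting of the counts is not given in the sources used here. The largest steady rise of all was that of such a frame, YOR041C, with 8.98 and 8.02 CPM with IAA, against 0.916 and 0.927 with DMSO (3.20 ± 0.22, adjusted p = 0.000319). YJR018W (2.48 ± 0.25) and YNL057W (2.33 ± 0.21), also without an entry, had steady rises too. Among the largest falls, YNK1, the nucleoside diphosphate kinase, had 50.8 and 46.4 CPM with IAA, against 133 and 148 with DMSO (-1.53 ± 0.09, adjusted p = 0.000203), and YKL066W, a frame that overlaps it on the other strand, -1.49 ± 0.11, so reads of the 2 cannot be told apart. Of metal genes, 7 of 18 in zinc and copper homeostasis were higher, all 7 steady, and none (3 without IAA replicate 2) was lower. The high-affinity zinc transporter ZRT1 had 181 and 125 CPM with IAA, against 66.01 and 58.03 with DMSO (1.31 ± 0.20), and ZRT2, of lower affinity, 0.77 ± 0.07. Their activator ZAP1 had 93.8 and 111 CPM with IAA, against 45.8 and 48.8 with DMSO (1.12 ± 0.10, adjusted p = 0.000495). Drug efflux and weak acid genes were 8 higher and 5 (0 with total-count scaling) lower of 24, 6 and 0 steady, with PDR12, the exporter of weak organic acids, at 140.0 and 136 CPM with IAA, against 86.6 and 71.3 with DMSO (0.81 ± 0.10, adjusted p = 0.00136). The efflux pump PDR5 had 1539 and 2117 CPM with IAA, against 3177 and 2705 with DMSO (-0.69 ± 0.18), lower and not steady.

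The response at 1 h was then set against that at 8 h, in which the controls were separate libraries and the RNA was depleted of rRNA, so time and the way RNA was selected cannot be told apart. Of the 593 features higher at 1 h, 524 were tested at 8 h, of which 253 (48.3%) were higher there too and 1 lower, and of the 418 lower, 417 were tested, of which 222 (53.2%) were lower and 12 higher; over all features tested at 8 h, 10.7% were higher and 10.3% lower. In a fit of the 8 RNA libraries, the response differed for 106 of 6451 features, 38 (0.589%) higher at 1 h than at 8 h and 68 (1.05%) lower. This count was 53 without 1 h IAA replicate 1, 57 without 1 h IAA replicate 2, 70 without 1 h DMSO replicate 2, 41 without 8 h IAA replicate 1, 36 without 8 h IAA replicate 2 and 53 without 8 h DMSO replicate 2, and total-count scaling gave 106 higher and 47 lower (69.3% higher, against 35.8%); 5 and 21 held under every alternative. Methionine genes led the lower group. MET17 had 111 and 119 CPM with IAA, against 352 and 385 with DMSO at 1 h, and 352 and 296 CPM with IAA, against 198 and 231 with DMSO at 8 h (1 h minus 8 h: -2.26 ± 0.18, adjusted p = 0.000199). STR3 had 2.79 and 3.19 CPM with IAA, against 6.45 and 7.86 with DMSO at 1 h, and 12.6 and 10.1 CPM with IAA, against 2.96 and 3.95 with DMSO at 8 h (-2.94 ± 0.34, adjusted p = 0.0016). In both genes IAA lay below DMSO at 1 h and above it at 8 h. Over the list of sulfate assimilation, 7 of 18 differences passed in the lower direction with the adjusted p alone, against 1.07% of all features (2 to 6 without a library, 2 under every alternative), and its median response was 0.12 at 1 h and 0.72 at 8 h; in the methionine cycle 6 of 24 passed and 5 held. Outside sulfur metabolism, MTH1, of glucose sensing, had responses of -1.64 ± 0.14 at 1 h and 0.76 ± 0.19 at 8 h, and HAP4, the activator subunit for respiration, of -0.95 ± 0.18 at 1 h and 0.81 ± 0.15 at 8 h. In the other direction, TIR1, a yeast cell wall mannoprotein unrelated to the plant auxin receptor of that name, had 28.99 and 33.4 CPM with IAA, against 41.9 and 59.5 with DMSO at 1 h, and 15.6 and 13.9 CPM with IAA, against 125 and 126 with DMSO at 8 h (2.40 ± 0.23, adjusted p = 0.00152), a fall at both times that was smaller at 1 h. PHO5, the secreted acid phosphatase, had 559.9 and 549.6 CPM with IAA, against 292 and 319 with DMSO at 1 h, and 121 and 109.5 CPM with IAA, against 129.9 and 157 with DMSO at 8 h (1.19 ± 0.17, adjusted p = 0.0062). SNZ1, of vitamin B6 synthesis, rose at both times but less at 1 h (0.45 ± 0.09 at 1 h and 2.15 ± 0.20 at 8 h). Arginine synthesis had the same calls, 10 of 10 higher, at both times, with medians of 1.57 at 1 h and 1.75 at 8 h and no difference that passed. Nuclear respiratory genes had a median of -0.39 at 1 h and 0.25 at 8 h, also with no difference that passed.

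**Figure D4:**
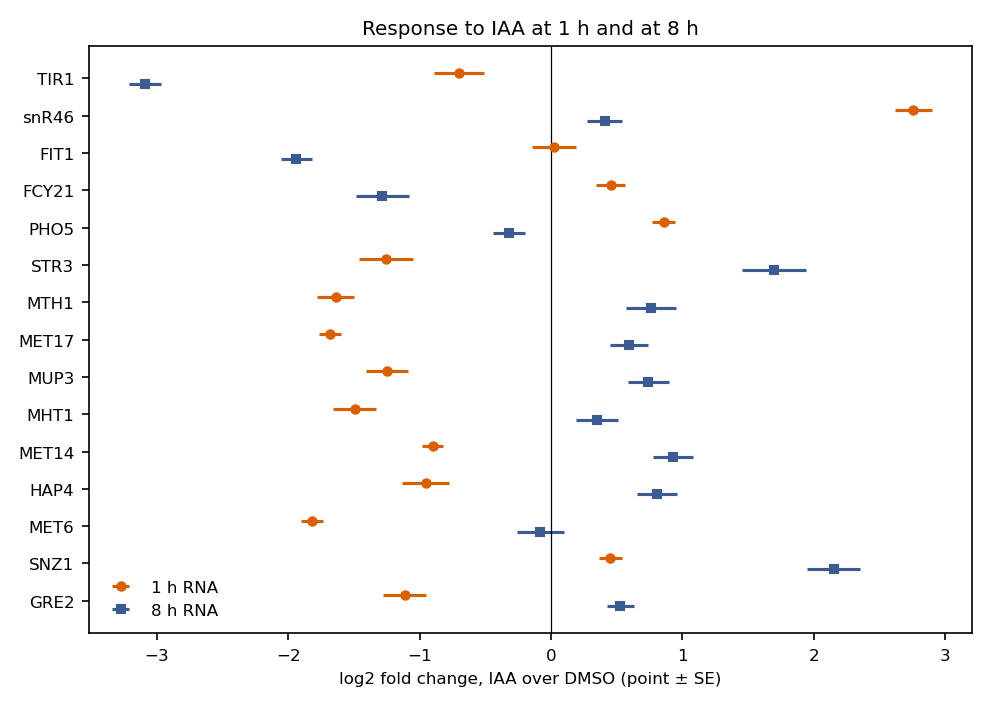
Log2 fold change of 15 genes in RNA at 1 h (circles) and at 8 h (squares), with the standard error of each fit as a bar (n = 2 libraries per group). These are the genes with the largest differences that held under every alternative, 5 higher and 10 lower at 1 h than at 8 h; of the 10 lower genes, 8 are below 0 at 1 h and above it at 8 h, and MET6 and SNZ1 are not.

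Ribosome footprints of the same treatment and time gave a different picture for many genes. Of the 593 features higher in RNA, 274 were tested in footprints, of which 49 (17.9%) were higher and 10 lower, and of the 418 lower, 401 were tested, of which 120 (29.9%) were lower and 24 higher; over all features tested in footprints, 11.3% were higher and 14.8% lower. The RNA and footprint responses differed for 767 of 6055 features in a fit of the 8 libraries of 1 h, 386 (6.37%) higher and 381 (6.29%) lower in RNA, and 206 and 252 held under every alternative. The footprint libraries held 2849721 and 3651300 counts over genes with IAA, against 8010138 and 6431552 with DMSO, fewer than the RNA libraries. The mRNAs of histones fell while their footprints did not: the list median was -0.47 in RNA and 0.23 in footprints, 7 of 10 were higher in footprints, and all 10 differences passed with the adjusted p alone (against 10.3% of features), 6 of them under every alternative. Proteasome genes had medians of -0.57 in RNA and 0.01 in footprints, and 22 of 36 differences passed, 17 under every alternative. Heat shock chaperones had medians of -0.92 in RNA and -0.17 in footprints, with 13 of 27 differences passed and 9 held, and genes of oxidative defence -0.51 and -0.03, with 14 of 31 passed and 9 held. ALD6 had 293 and 301 CPM with IAA, against 900.0 and 1156 with DMSO in RNA, and 2862 and 2637 CPM with IAA, against 2618 and 2625 with DMSO in footprints (RNA minus footprints: -1.79 ± 0.16, adjusted p = 4.83e-05). GPD1 had 41.4 and 31.97 CPM with IAA, against 77.1 and 87.001 with DMSO in RNA, and 185 and 175 CPM with IAA, against 152 and 139.9 with DMSO in footprints (-1.40 ± 0.17, adjusted p = 0.000265). In both genes IAA lay below DMSO in RNA. In footprints ALD6 was not called (0.07 ± 0.05, adjusted p = 0.332), while GPD1 was called higher (0.30 ± 0.07, adjusted p = 0.000534). The response of CAR1, the arginase, was -1.23 ± 0.10 in RNA and 0.18 ± 0.06 in footprints, and that of the hexose transporter HXT7 -2.05 ± 0.21 in RNA and -0.40 ± 0.08 in footprints. Rises could also be larger in RNA. In arginine synthesis 5 of 10 differences passed (3 held), with medians of 1.57 and 0.73. SER3 had 169 and 155 CPM with IAA, against 62.04 and 57.4 with DMSO in RNA, and 22.1 and 22.6 CPM with IAA, against 21.6 and 19.5 with DMSO in footprints (1.39 ± 0.16, adjusted p = 9.83e-05), and SLT2, the MAP kinase of cell wall integrity, 1.54 ± 0.15 in RNA and -0.08 ± 0.12 in footprints. FRE2, a ferric reductase, and ZRT2, the zinc transporter, were higher in RNA and lower in footprints, FRE2 with 1.32 ± 0.12 in RNA and -0.82 ± 0.18 in footprints, and ZRT2 with 0.77 ± 0.07 in RNA and -0.63 ± 0.15 in footprints. AIM17, a mitochondrial protein of unknown function, was not called in RNA (-0.22 ± 0.22) and rose in footprints (1.47 ± 0.12).

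**Figure D5:**
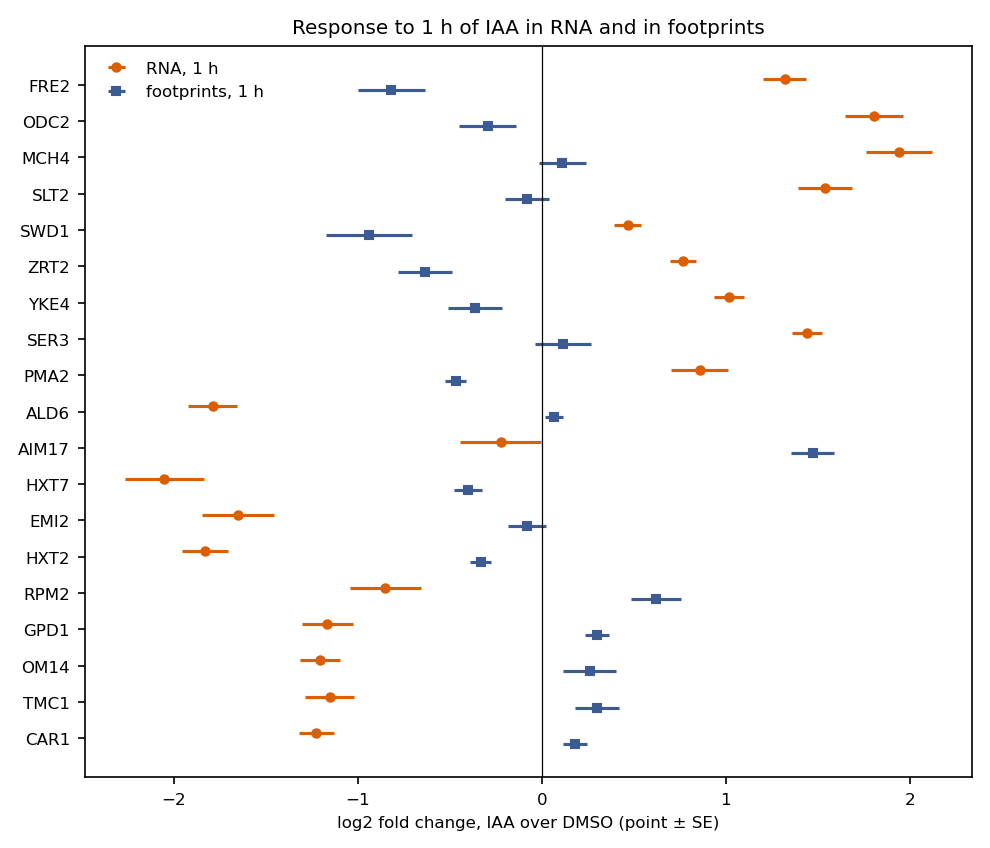
Log2 fold change of 19 genes after 1 h of IAA in RNA (circles) and in ribosome footprints (squares), with the standard error of each fit as a bar (n = 2 libraries per group). The 9 upper genes are higher in RNA than in footprints and the 10 lower genes lower; RNA responses of the 19 genes run from -2.05 (HXT7) to 1.94 (MCH4).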

How the data were processed

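Poly(A)-selected RNA of eIF4E-AID cultures treated for 1 h was compared in 2 IAA and 2 DMSO libraries, with the libraries of 8 h RNA and 1 h footprints used only where named. Per the labels, libraries were made with a directional kit, and the submitters' processing notes name cutadapt, STAR, R64 and sacCer3; the study's methods give STAR alignment to the S288C genome R64.1 and DESeq2. The deposited values were raw counts per gene made by the authors; which tool counted them, and with which strand setting, is not given in the sources used here, although the summary lines have the names that HTSeq-count uses. Those lines (reads assigned to no gene) made up 29.8 to 31.2% of each 1 h RNA library and were removed.

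Counts were fitted with edgeR 4.0.16 in R 4.3.3 (filterByExpr, TMM, robust quasi-likelihood test), without the replicate number as a term, and p-values were adjusted over all features (Benjamini-Hochberg). Genes count as called in totals from an adjusted p under 0.05 with a log2 change of 0.58 or more, while list members and single genes needed the adjusted p alone. Differences between responses came from interaction terms in fits of 8 libraries. Alternatives were DESeq2 1.42.0, its size factors, total-count scaling, no filter, a mean of at least 100 counts, all 8 RNA libraries together, the replicate number as a term, no minimum fold and the removal of each library. The fits were tested on simulated counts. Named genes were the 15 largest steady rises and falls, up to 4 steady members per list by adjusted p, and up to 10 genes per direction of each interaction; further list members were chosen after their values were seen, and 1 gene that the rules name is not reported here. Members and lists were chosen with earlier results of these data known. Of 7126 features, 6048 matched RefSeq's R64 annotation by locus tag and 114 by symbol; coordinates, promoter sequences and snoRNA classes come from it. The log2 levels of genes correlated at r = 0.995 between the IAA libraries and at r = 0.994 between the DMSO libraries, whose counts differed by more than sampling noise.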

Additional observations from a re-analysis of the deposited data

Results flagged for a closer look

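The response to IAA in RNA differed between 1 h and 8 h for 15 named genes by the interaction test, and since the 1 h RNA was selected for poly(A) and the 8 h RNA depleted of rRNA, time and selection cannot be told apart. In 5 genes the response was higher at 1 h than at 8 h. The difference (1 h minus 8 h, log2) was 2.40 for TIR1 and 1.19 for PHO5. snR46 had 31.9 and 28.3 CPM with IAA, against 4.79 and 4.15 with DMSO at 1 h, and 77.7 and 74.5 CPM with IAA, against 64.9 and 50.2 with DMSO at 8 h (difference 2.36 ± 0.20, adjusted p = 0.000199); this snoRNA has no poly(A) tail in its mature form, and its 8 h libraries held it at levels far above those of 1 h. FIT1 had 14.5 and 19.3 CPM with IAA, against 15.3 and 17.9 with DMSO at 1 h, and 32.4 and 33.5 CPM with IAA, against 117 and 135 with DMSO at 8 h (difference 1.98 ± 0.19, adjusted p = 0.000852); FIT1 is a cell wall mannoprotein that retains iron siderophores, and it was called at 8 h but not at 1 h. FCY21 had 39.03 and 38.3 CPM with IAA, against 25.5 and 30.8 with DMSO at 1 h, and 7.07 and 10.4 CPM with IAA, against 20.4 and 22.1 with DMSO at 8 h (difference 1.76 ± 0.23, adjusted p = 0.00335); FCY21 is a relative of the cytosine permease.

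In 10 genes the response was lower at 1 h than at 8 h, and 6 of them belong to sulfur metabolism: STR3 (-2.94), MET17 (-2.26), MUP3 (-1.97), MHT1 (-1.83), MET14 (-1.82) and MET6 (-1.73). MUP3 had 4.87 and 4.55 CPM with IAA, against 11.2 and 11.2 with DMSO at 1 h, and 21.9 and 23.7 CPM with IAA, against 14.1 and 13.2 with DMSO at 8 h; it encodes a low-affinity methionine permease. MHT1 had 6.26 and 7.43 CPM with IAA, against 17.3 and 21.3 with DMSO at 1 h, and 16.5 and 16.1 CPM with IAA, against 12.7 and 12.9 with DMSO at 8 h; it encodes a homocysteine methyltransferase. MET6 had 117 and 107 CPM with IAA, against 389.8 and 404 with DMSO at 1 h, and 582 and 446 CPM with IAA, against 493 and 594 with DMSO at 8 h; it encodes the methionine synthase, and its response was called at 1 h and not at 8 h. The other 4 were MTH1 (-2.39), HAP4 (-1.74), SNZ1 (-1.69) and GRE2 (-1.63), of which GRE2 had 49.4 and 53.4 CPM with IAA, against 129 and 94.2 with DMSO at 1 h, and 149 and 149.9 CPM with IAA, against 107 and 100.4 with DMSO at 8 h; Gre2 is a stress-induced reductase.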

How the results depend on the processing

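Of 250 called genes that the naming rules chose, 249 kept their direction and an adjusted p under 0.05 in each of their alternatives, which the rules required of all but CDC33, the exception; other called genes in the report, such as SSA1, HSP82, ARG1 and ARG3, were chosen for their function and were not steady. The count of genes called at 1 h, 1011, was 978 with DESeq2, 1331 with total-count scaling, 1007 without a filter, 2726 with no minimum fold change, and 952 to 1117 without one library. With the replicate number as a term (replicate block) it was 1177; the same-numbered IAA and DMSO libraries deviated together (r = 0.60 over genes), but the labels do not tie the numbers to a shared culture or day and there are 2 pairs only, so the numbers were not taken as pairing. The count of genes whose RNA response differed between 1 h and 8 h, 106, was 210 with DESeq2, 210 with the replicate block and 153 with total-count scaling, and 36 to 116 without one library. The count of genes whose RNA and footprint responses differed, 767, was 1286 with no minimum fold change, 936 with the replicate block, and 567 to 833 without one library. Of 81 lists, the medians of 19 turned with total-count scaling, all from below 0; of these, 9 belong to the 58 lists with counts in the text, and turned to 0.0272 for the TCA cycle, 0.00490 for phospholipid synthesis, 0.0360 for pyrimidines, 0.0332 and 0.000458 for large and small subunit ribosomal proteins, 1.37e-05 for intron-containing genes, 0.0364 for decapping, 0.0806 for sphingolipids and 0.153 for eIF2, eIF2B and eIF5B (-0.154 to 0.0182 without one library), and that of splicing factors was -0.00443 to 0.0874 without one library. With n = 2 per group, a single library can decide a call. Counts do not tell whether total mRNA per cell changed, and no value here separates synthesis from decay. Features under about 1 CPM, among them most C/D snoRNAs in DMSO libraries and the open reading frames without an entry, had few counts.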

Other observations

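Genes of the cell wall and the vacuole fell in part. Of 32 genes for mannoproteins and glucanases of the wall, 13 (7 with total-count scaling) were lower and 2 (5 without DMSO replicate 2) higher, 5 and 2 of them steady, with a median of -0.30 (-0.08 with total-count scaling). GAS3, a member of the glucanosyltransferase family, had 162 and 143 CPM with IAA, against 276 and 239 with DMSO (-0.76 ± 0.10, adjusted p = 0.00165), and the mannoproteins CIS3 (-0.72 ± 0.12) and ECM33 (-0.69 ± 0.12) fell as well. TIR2 and PIR3 were the exceptions: TIR2 had 20.1 and 17.8 CPM with IAA, against 9.43 and 8.69 with DMSO (1.06 ± 0.14, adjusted p = 0.00134), and PIR3 13.8 and 15.4 CPM with IAA, against 6.58 and 7.004 with DMSO (1.11 ± 0.15). Of 27 genes of vacuolar proteases, the proton pump and autophagy, 10 (6 with total-count scaling) were lower and 3 (1 without DMSO replicate 1) higher, 6 and 1 steady. PRB1, the vacuolar proteinase B, had 33.3 and 30.4 CPM with IAA, against 60.7 and 60.1 with DMSO (-0.92 ± 0.08, adjusted p = 0.00047), and ATG1, the kinase that starts autophagy, 5.76 and 5.98 CPM with IAA, against 11.6 and 11.7 with DMSO (-0.99 ± 0.15, adjusted p = 0.00267). ATG19, the receptor that brings aminopeptidase I to the vacuole, had 109.6 and 120.0 CPM with IAA, against 54.2 and 64.4 with DMSO (0.95 ± 0.10).

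At the entrance to the secretory pathway 16 of 28 (3 with total-count scaling, 10 in the fit of 8 RNA libraries, 10 without DMSO replicate 1) genes were lower and 1 (3 with total-count scaling) higher, 2 and 1 steady. SEC61, the channel of the endoplasmic reticulum, had 289 and 295 CPM with IAA, against 388 and 417 with DMSO (-0.46 ± 0.08, adjusted p = 0.00439), whereas SRP68, a protein of the signal recognition particle, had 363 and 320.1 CPM with IAA, against 258 and 232 with DMSO (0.48 ± 0.10, adjusted p = 0.00746). Single genes of other routes had steady rises: GIT1, a transporter of glycerophosphoinositol, had 18.6 and 15.8 CPM with IAA, against 6.14 and 5.61 with DMSO (1.55 ± 0.16, adjusted p = 0.000647). BIO3, a transaminase of biotin synthesis, had 29.8 and 32.8 CPM with IAA, against 10.9 and 9.96 with DMSO (1.59 ± 0.12, adjusted p = 0.000338). BNA2, the first enzyme of NAD synthesis from tryptophan, had 1.95 and 2.88 CPM with IAA, against 5.12 and 5.54 with DMSO (-1.13 ± 0.25, adjusted p = 0.0105), a steady fall. Of the 16 motifs searched in promoters, the zinc-responsive element was held by 5 of 17 zinc and copper genes with a promoter window, which had a median of 0.78, against 0.10 for the 12 without it. The element lay in 0.534% of 5987 promoters. Outside the list, 26 tested genes held it, with a median of -0.07 and 5 higher and 8 lower calls.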
